A study of Rattus norvegicus with 16 samples.

Results

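The genes described here make, take up and export cholesterol in the liver. They are 33 listed genes of the mevalonate and sterol pathway, its control by SREBP2, and the uptake, storage and export of cholesterol, chosen by name and matched by gene symbol in the array annotation. Of these, 32 were measured, among 22093 genes with a probe set of their own. Hmgcs1, which makes HMG-CoA, was not analysed here. Each gene was read from its probe set with the highest mean over the 16 arrays; 31 members had 1 probe set and Lss had 2. The chromosome of the probe set and that of the gene in RefSeq were the same for 32 of 32 members.

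Livers came from male RccHan Wistar rats, an outbred strain, aged 7 to 8 weeks at the start. The groups were rats fed 3000 ppm phenformin for 3 days, rats on untreated feed for 3 days, rats fed 3000 ppm phenformin for 14 days and rats on untreated feed for 14 days, with 4 arrays each. Phenformin is a biguanide, a class of drugs that lower blood glucose. The labels state 5 animals per group and cages shared by 2 or 3 animals, and titles count the 4 livers of a group as biological replicates. The sources used here give neither which animals shared a cage nor the hour at which livers were taken. Expression was measured with a 1-colour Affymetrix whole-transcript array, and values below are log2 of the deposited intensities. The 16 arrays correlated with each other at 0.987 to 0.992 over all 68842 probe sets. Because the scale reached 19.93 on the log2 axis and may have been stretched, folds are ratios of deposited values.

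Hepatocytes build cholesterol from acetyl-CoA through mevalonate, isoprenoids, squalene and lanosterol, and a last set of enzymes turns lanosterol into cholesterol. When membranes of the endoplasmic reticulum are low in sterol, the escort protein SCAP carries SREBP2 to the Golgi, where it is cut to an active factor that raises transcription of the synthesis genes. INSIG proteins hold SCAP back when sterols are plentiful, and excess sterol is esterified, moved onto lipoproteins or secreted into bile, in part through genes driven by the oxysterol receptor LXR.

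The livers of untreated rats at day 3 held the highest group mean for 17 of the 32 members (53.1%), against 26.3% of all genes. The untreated livers of day 14 held the lowest group mean for 11 members (34.4%), against 23.7% of all genes. The mean over the 32 members was 10.58 ± 0.22 in phenformin livers of day 3 and 10.73 ± 0.16 in controls of day 3 (SD, n = 4 each). The day-14 mean was 10.63 ± 0.11 in phenformin livers and 10.50 ± 0.13 in controls.

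**Figure D1:**
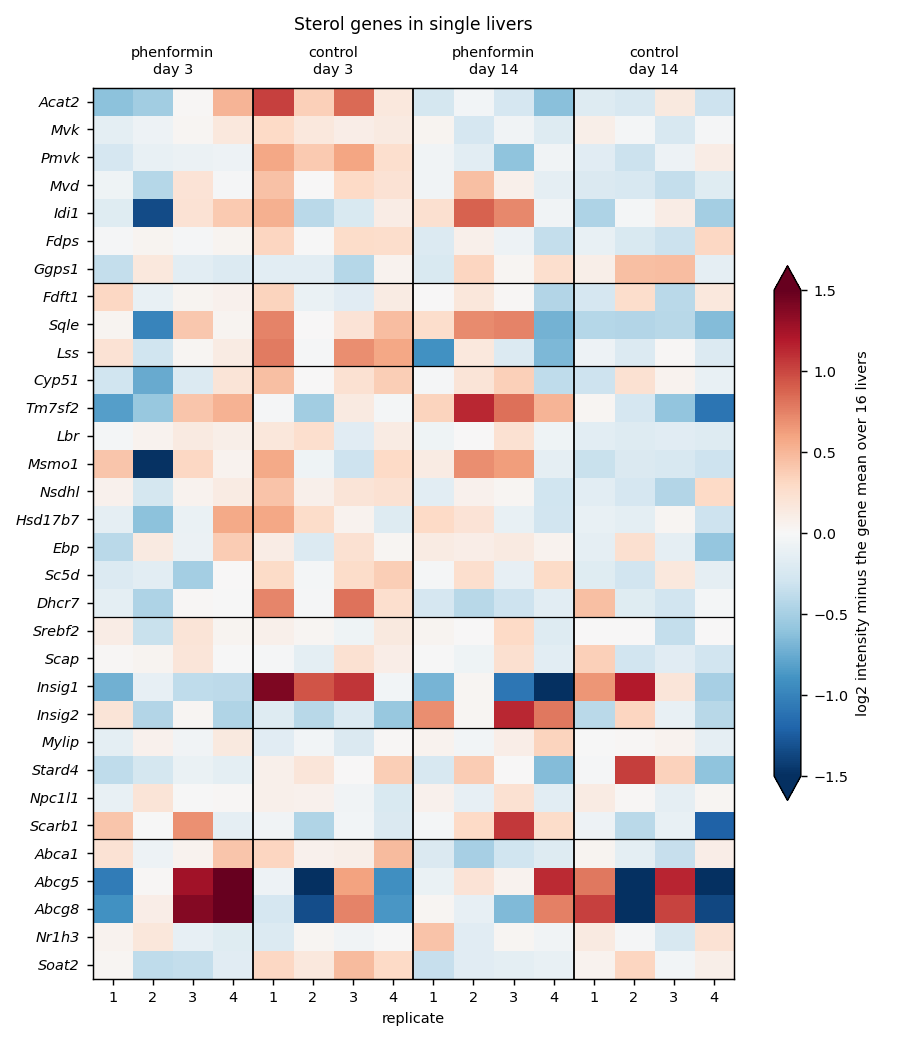
Colour gives the log2 intensity of each of the 32 genes (rows, in pathway order, with lines between roles) minus its mean over the 16 livers, in each liver (columns, numbered by replicate within a group). Controls of day 3 hold the highest group mean for 17 genes, and Abcg5 and Abcg8 have the widest spread between livers of a group.

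At day 3, 2 members were lower in phenformin livers and 0 were higher at an adjusted p under 0.05 (limma with Benjamini-Hochberg adjustment over all 22093 genes), and 30 did not pass. The 2 were Pmvk, the phosphomevalonate kinase gene, and Soat2, which encodes a sterol esterifying enzyme. The same threshold called 1.15% of all genes. At an unadjusted p under 0.05 there were 9 members (28.1%), all with values below 0, where the share of all genes was 10.6%. The median log2 change of the members was -0.19, against 0.01 over all genes, and 22 of 32 values were below 0. That median was -0.07 without phenformin replicate 2 and -0.09 without control replicate 1 of day 3, with 20 and 23 members below 0. The arrays of the 2 groups did not overlap for 4 members, Pmvk, Insig1, Stard4 and Soat2, each lower in phenformin livers, and for 7.68% of all genes.

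At day 14, 0 members passed in limma, where 0.321% of all genes did. At an unadjusted p under 0.05 there were 8 members (25%), 6 with values above 0 (Mvd, Sqle, Tm7sf2, Lbr, Insig2, Scarb1) and 2 below 0 (Insig1, Soat2), where the share of all genes was 11.2%. The median change of the members was 0.09, against 0.00 over all genes, and it was 0.03 without phenformin replicate 3 and 0.05 without control replicate 3 of day 14. The groups did not overlap for 6 members, with Mvd, Tm7sf2, Lbr, Msmo1 and Scarb1 higher and Soat2 lower in phenformin livers, and for 5.22% of all genes.

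The change at day 14 minus that at day 3 was tested directly as a difference of effects. It passed for 0 of the 32 members in limma and for 0.00453% of all genes. At an unadjusted p under 0.05 there were 6 members (18.8%; Pmvk, Mvd, Sqle, Cyp51, Tm7sf2, Sc5d), all above 0, where the share of all genes was 4.68%. The difference was above 0 for 25 of 32 members, among them 9 of the 9 enzymes that act after lanosterol, and for 11153 of 22093 genes. The median of the members was 0.23, against 0.00 over all genes. It was 0.18 without phenformin replicate 3 of day 14 and 0.31 without control replicate 2 of day 3. All of these values share the control arrays of day 3, and many enzymes varied together within groups, so the 9 are not separate results.

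**Figure D2:**
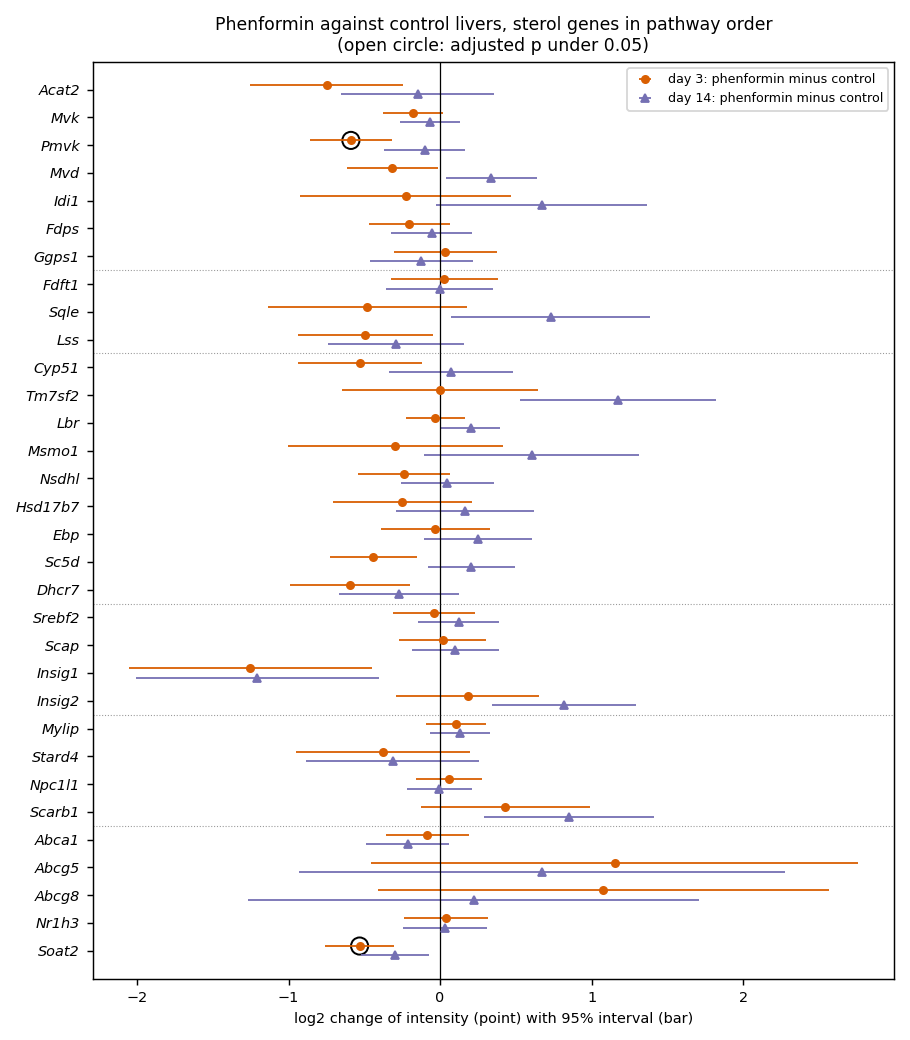
Points give the log2 change of intensity, phenformin minus control, at day 3 (circles) and day 14 (triangles) for each of the 32 genes in pathway order, bars the 95% intervals of limma, and open circles the changes at an adjusted p under 0.05. Only Pmvk and Soat2 at day 3 are circled, and of the enzymes after lanosterol 9 of 9 lie at or below 0 at day 3 and 8 of 9 above 0 at day 14.

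Control livers of the 2 days were compared as well, since they differ by 11 days of feeding and age. For the members 0 passed in limma, where 0.403% of all genes did. At an unadjusted p under 0.05 there were 13 members (40.6%), where the share of all genes was 7.15%. Of these, 12 were below 0 in controls of day 14 relative to controls of day 3 and Ggps1, which makes geranylgeranyl diphosphate, was above 0 (0.39 ± 0.16, log2 change ± SE). The count of 13 was 6 without control replicate 1 of day 3 and 7 without control replicate 3 of day 14. The median of the 32 members was -0.26, and 9 of 9 enzymes after lanosterol were below 0. The arrays did not overlap for 5 members, Acat2, Mvk, Pmvk, Mvd and Sqle, each lower in controls of day 14, and for 4.5% of all genes. In phenformin livers of day 14 against those of day 3, 0 members passed in limma, where the share of all genes was 0%. There, 4 members (12.5%) had an unadjusted p under 0.05, Tm7sf2, Sc5d and Insig2 above 0 and Abca1 below 0, where the share of all genes was 7.71%. Without phenformin replicate 1 of day 3 there were 2 such members.

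Controls of day 3 were then set against the mean of the other 3 groups, a description of a pattern already known from earlier results of these data. In limma 2 members passed, both higher in controls of day 3, where 1.76% of all genes passed. Pmvk was 1.53-fold higher in them (95% interval 1.31 to 1.78, adjusted p = 0.00526) and Soat2 1.33-fold higher (1.17 to 1.51, adjusted p = 0.0215). The next by p were Acat2 at 0.79 ± 0.19, Lss at 0.68 ± 0.17, Dhcr7 at 0.59 ± 0.15 and Insig1 at 1.13 ± 0.31 (log2 difference ± SE), with adjusted p of 0.0508, 0.0613, 0.065 and 0.0854. The 4 control arrays of day 3 enter this contrast, the day-3 change, the difference of effects and the comparison of the control days. These results are thus not independent of each other. In the contrast with the other 3 groups, the call of Soat2 ended without control replicate 1, 3 or 4 of day 3 (adjusted p = 0.0867, 0.105 and 0.0639). That of Pmvk held in 16 of 16 fits that leave out 1 array.

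Marker genes of other cell types differed at day 3 as well. Those said to have fallen were lower at an adjusted p under 0.05 in limma. That threshold called 1.15% of all genes at day 3, 0.321% at day 14 and 0.403% between the control days. All 5 markers of dividing cells fell at day 3, and the mean of the list was 5.56 in phenformin livers and 7.37 in controls. At day 14 it was 5.98 in phenformin livers and 5.76 in controls, with 0 called, and 4 of the 5 fell in controls of day 14 relative to controls of day 3. Of 6 stellate and fibroblast markers 5 fell at day 3, with a mean of 7.28 in phenformin livers and 8.07 in controls. At day 14 that mean was 7.51 in phenformin livers and 7.56 in controls, with 0 called, and 2 of the 6 fell in controls of day 14 relative to controls of day 3. The 5 hepatocyte markers measured averaged 17.58 and 17.56 in phenformin and control livers of day 3 and 17.55 and 17.58 in those of day 14, near the top of the scale. Of 5 endothelial markers, Stab2 fell at day 3, and macrophage, cholangiocyte, lymphocyte, erythroid and gut or pancreas markers had 0 called at either day. The part of these cell markers in the results on sterol genes was not tested. In pieces of whole liver, fewer cells of a type and less RNA per cell cannot be told apart.

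Among the first enzymes, Pmvk, which adds the second phosphate to mevalonate, stood at 8.06, 8.20, 8.22 and 8.24 in phenformin livers of day 3. Controls of day 3 had 8.89, 8.71, 8.91 and 8.56. The groups did not overlap, and every control of day 3 also lay above the 8 livers of day 14. Pmvk fell by 0.59 ± 0.13 on the log2 scale at day 3, which is 1.50-fold lower (95% interval 1.25 to 1.81, adjusted p = 0.0331). Pmvk at day 14 had 8.26, 8.16, 7.71 and 8.26 in phenformin livers and 8.15, 7.99, 8.24 and 8.42 in controls. These groups overlapped, with a change of -0.10 ± 0.13 (adjusted p = 0.848). In controls of day 14 relative to controls of day 3 the change was -0.57 ± 0.13 (adjusted p = 0.0689), about the size of the day-3 change of phenformin. The day-3 call of Pmvk was lost in 7 of 16 fits that leave out 1 array, each of them an array of day 3. Its adjusted p was 0.116, 0.0718 and 0.108 without control replicates 1, 2 and 3. It was 0.115, 0.0831, 0.0735 and 0.0596 without phenformin replicates 1, 2, 3 and 4.

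Acat2, the cytosolic thiolase that joins acetyl-CoA units at the entry of the pathway, had 8.58, 8.68, 9.22 and 9.71 in phenformin livers of day 3. Controls of day 3 had 10.23, 9.56, 10.05 and 9.36. The highest phenformin liver lay among the controls, and the change was -0.75 ± 0.24 (adjusted p = 0.198). Without that liver, phenformin replicate 4, the change was -0.97 and passed (adjusted p = 0.0489). Leaving out the highest phenformin liver could only enlarge this fall. It was the only 1 of 16 fits that leave out 1 array in which Acat2 passed (adjusted p from 0.0489 to 0.455). At day 14 Acat2 stood at 8.93, 9.16, 8.95 and 8.58 in phenformin livers and at 9.01, 8.96, 9.35 and 8.89 in controls. These overlapped, and the lowest control of day 3 lay just above the highest control of day 14. Controls of day 14 differed from those of day 3 by -0.74 ± 0.24 (adjusted p = 0.369).

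Idi1, which interconverts the 5-carbon isoprenoid units, had 11.39, 10.23, 11.78 and 11.96 in phenformin livers of day 3, against 12.09, 11.17, 11.33 and 11.68 in controls. Idi1 at day 14 had 11.81, 12.45, 12.28 and 11.51 in phenformin livers and 11.10, 11.53, 11.68 and 11.06 in controls. Phenformin replicate 2 of day 3 was the lowest of the 16 livers and 2 phenformin livers of day 14 were the highest. The changes were -0.23 ± 0.33 at day 3 and 0.67 ± 0.33 at day 14 (adjusted p = 0.901 and 0.474). Of the other enzymes of this stretch, Mvd, which decarboxylates mevalonate diphosphate, was at -0.31 ± 0.14 at day 3 and 0.34 ± 0.14 at day 14 (adjusted p = 0.438 and 0.379). Its difference of effects was 0.65 ± 0.20 (adjusted p = 0.55). Mvk, the mevalonate kinase, Fdps, which makes farnesyl diphosphate, and Ggps1 had changes between -0.20 and 0.03 at day 3 and between -0.12 and -0.06 at day 14.

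Sqle, the epoxidase that commits squalene to sterols, had 10.94, 9.91, 11.31 and 10.94 in phenformin livers of day 3, against 11.65, 10.91, 11.10 and 11.36 in controls. Sqle at day 14 had 11.16, 11.60, 11.65 and 10.19 in phenformin livers, against 10.47, 10.46, 10.49 and 10.25 in controls. At day 14, 3 phenformin livers lay above all controls of that day and replicate 4 lay below them. The change was -0.48 ± 0.31 at day 3 and 0.73 ± 0.31 at day 14, 1.66-fold (95% interval 1.05 to 2.62, adjusted p = 0.386). Its difference of effects was 1.21 ± 0.44 (adjusted p = 0.783), and controls of day 14 stood at -0.84 ± 0.31 relative to those of day 3 (adjusted p = 0.531).

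Lss, the cyclase that makes lanosterol, had 9.67, 9.15, 9.48 and 9.57 in phenformin livers of day 3, against 10.23, 9.43, 10.15 and 10.03 in controls. In these, 3 of 4 controls lay above every phenformin liver, and the change was -0.49 ± 0.21 (adjusted p = 0.408). At the later day Lss had 8.54, 9.61, 9.24 and 8.78 in phenformin livers and 9.37, 9.25, 9.46 and 9.24 in controls, with a change of -0.29 ± 0.21 (adjusted p = 0.679). Its second probe set gave group means of 8.55 in phenformin and 9.01 in control livers of day 3, and of 8.16 in phenformin and 8.48 in control livers of day 14, the same order. Fdft1, the squalene synthase gene, had changes of 0.03 ± 0.17 at day 3 and -0.00 ± 0.17 at day 14.

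Of the enzymes that follow lanosterol, Tm7sf2, a sterol reductase that acts on the C14 double bond, had the largest change at day 14. It stood at 13.10, 13.90, 13.59 and 13.28 in phenformin livers of day 14, against 12.80, 12.52, 12.18 and 11.67 in controls. The groups did not overlap, with a change of 1.18 ± 0.30, 2.26-fold (95% interval 1.44 to 3.54), which did not pass (adjusted p = 0.112). At day 3 it had 11.95, 12.21, 13.19 and 13.30 in phenformin livers and 12.76, 12.24, 12.90 and 12.74 in controls. Phenformin livers of day 3 thus lay on both sides of their controls, with a change of -0.00 ± 0.30. Lbr, a nuclear envelope protein with the same reductase activity, was at -0.03 ± 0.09 at day 3 and 0.20 ± 0.09 at day 14 (adjusted p = 0.957 and 0.427).

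Dhcr7, which reduces the C7 double bond in the final steps, had 12.25, 11.94, 12.42 and 12.39 in phenformin livers of day 3, against 13.13, 12.39, 13.21 and 12.65 in controls. Only the lowest control reached into the phenformin range, and the change was -0.60 ± 0.19 (adjusted p = 0.19). Later, at day 14, Dhcr7 had 12.15, 11.98, 12.09 and 12.25 in phenformin livers and 12.85, 12.22, 12.11 and 12.37 in controls, with a change of -0.27 ± 0.19 (adjusted p = 0.66). Controls of day 14 were at -0.46 ± 0.19 relative to those of day 3 (adjusted p = 0.589).

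Cyp51, the lanosterol demethylase, was at -0.53 ± 0.19 at day 3 and 0.07 ± 0.19 at day 14 (adjusted p = 0.291 and 0.944). Sc5d, a sterol desaturase, was at -0.44 ± 0.13 at day 3 and 0.21 ± 0.13 at day 14 (adjusted p = 0.175 and 0.628). Its difference of effects, 0.65 ± 0.19, had the smallest adjusted p among the members (0.486). Msmo1, a C4 methyl oxidase, was at -0.30 ± 0.33 at day 3 and 0.60 ± 0.33 at day 14. Nsdhl and Hsd17b7, which act with it in removing the C4 methyl groups, and Ebp, a sterol isomerase, lay between -0.25 and -0.03 at day 3 and between 0.05 and 0.25 at day 14.

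**Figure D3:**
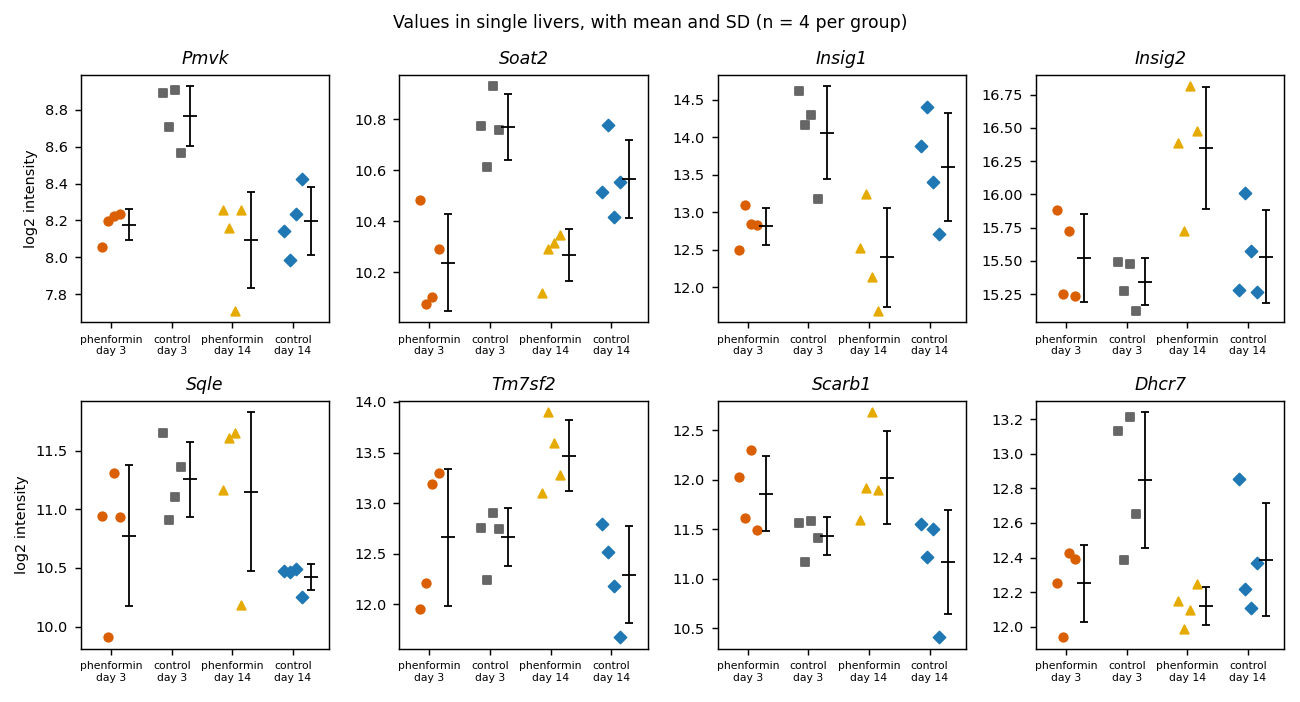
Each point is the log2 intensity of 1 gene in 1 liver, with the mean and SD of each group (n = 4) beside the points, in the order phenformin day 3, control day 3, phenformin day 14 and control day 14. Pmvk, Soat2 and Insig1 separate phenformin from control livers at day 3 and Tm7sf2, Scarb1 and Soat2 at day 14. Insig1 lies low in phenformin livers of both days.

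Of the genes that control SREBP2, Insig1 had the largest difference between groups. It stood at 12.49, 13.09, 12.84 and 12.82 in phenformin livers of day 3, against 14.62, 14.17, 14.30 and 13.17 in controls. At day 14 it stood at 12.52, 13.24, 12.14 and 11.68 in phenformin livers, against 13.89, 14.41, 13.40 and 12.72 in controls. The groups did not overlap at day 3, where the lowest control came close to the highest phenformin liver, and overlapped by 1 liver on each side at day 14. The changes were -1.25 ± 0.38 and -1.21 ± 0.38, 2.38-fold lower (95% interval 1.37 to 4.15) and 2.31-fold lower (1.32 to 4.02). Neither passed (adjusted p = 0.167 and 0.202), with a within-group SD of 0.592, larger than that of 98.5% of genes. The difference of effects was 0.05 ± 0.53 (95% interval -1.09 to 1.18), which leaves a wide range of possible differences.

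Insig2, the second INSIG gene, had 15.89, 15.25, 15.72 and 15.24 in phenformin livers of day 3, against 15.49, 15.27, 15.48 and 15.12 in controls. On day 14 Insig2 had 16.38, 15.72, 16.82 and 16.48 in phenformin livers, against 15.28, 16.01, 15.57 and 15.27 in controls. At day 14, 3 phenformin livers lay above all the other livers. The change was 0.18 ± 0.22 at day 3 and 0.82 ± 0.22 at day 14 (adjusted p = 0.874 and 0.133), the last being 1.76-fold (1.27 to 2.45). In the liver of rodents, a transcript of Insig2 is known to be repressed by insulin, whereas Insig1 is a target of SREBP proteins.

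The log2 value of Insig1 minus that of Insig2 in the same liver was used to follow their balance, although the level of such a difference has no meaning across probe sets. It was -3.39, -2.16, -2.88 and -2.41 in phenformin livers of day 3, against -0.87, -1.11, -1.18 and -1.95 in controls. The day-14 differences were -3.86, -2.48, -4.68 and -4.79 in phenformin livers, against -1.39, -1.61, -2.17 and -2.55 in controls. The groups did not overlap at day 3, where Insig1 alone did not overlap either, so this is not a separate result. At day 14 phenformin replicate 2 lay just above the lowest control. How often other pairs of genes separate in this way was not computed. The group means were -2.71 ± 0.54 in phenformin and -1.28 ± 0.47 in control livers of day 3, and -3.95 ± 1.07 in phenformin and -1.93 ± 0.53 in control livers of day 14 (SD, n = 4 each). Srebf2, which encodes SREBP2 itself, and Scap were near 0 at both days, at -0.04 ± 0.13 and 0.02 ± 0.13 at day 3 and at 0.12 ± 0.13 and 0.10 ± 0.13 at day 14.

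Scarb1 encodes SR-BI, the receptor that takes up cholesteryl esters from HDL. It had 11.59, 11.92, 12.68 and 11.89 in phenformin livers of day 14, against 11.55, 11.22, 11.51 and 10.41 in controls. The groups did not overlap, by a narrow gap, and the change was 0.85 ± 0.26, 1.80-fold (95% interval 1.22 to 2.66, adjusted p = 0.198). At day 3 it had 12.03, 11.62, 12.30 and 11.49 in phenformin livers, against 11.56, 11.17, 11.58 and 11.41 in controls. Those overlapped, with a change of 0.43 ± 0.26 (adjusted p = 0.636). Stard4, a carrier of cholesterol between membranes, was at -0.38 ± 0.27 at day 3 and -0.31 ± 0.27 at day 14 (adjusted p = 0.71 and 0.748). Mylip, a ubiquitin ligase that marks lipoprotein receptors for breakdown, was at 0.11 ± 0.09 and 0.13 ± 0.09. Npc1l1, a sterol importer best known from the intestine, was at 0.06 ± 0.10 and -0.01 ± 0.10. Mylip and Npc1l1 averaged 5.88 and 4.66 over all arrays, and the median gene of the array 5.86, so both may lie near background.

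Soat2 encodes the enzyme that esterifies cholesterol for lipoproteins in hepatocytes and enterocytes. It had 10.48, 10.07, 10.10 and 10.29 in phenformin livers of day 3, against 10.77, 10.61, 10.93 and 10.76 in controls. In livers of day 14 Soat2 had 10.12, 10.29, 10.32 and 10.35 in phenformin livers, against 10.51, 10.78, 10.42 and 10.55 in controls. At each day every phenformin liver lay below every control of that day. Soat2 fell by 0.53 ± 0.11 on the log2 scale at day 3, 1.45-fold lower (95% interval 1.24 to 1.69, adjusted p = 0.0223). At day 14 the change was -0.30 ± 0.11, 1.23-fold lower (1.05 to 1.44), and did not pass (adjusted p = 0.278). The difference of effects was 0.23 ± 0.15 (adjusted p = 1), and controls of day 14 were at -0.20 ± 0.11 relative to those of day 3 (adjusted p = 0.755).

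The day-3 call of Soat2 was lost in 5 of 16 fits that leave out 1 array. Its adjusted p was 0.0724, 0.077 and 0.0525 without control replicates 1, 3 and 4 and 0.0787 and 0.0753 without phenformin replicates 2 and 3. With only the 8 arrays of day 3 in the fit it was 0.0788. No member passed at day 3 without control replicate 1 or 3 or phenformin replicate 2 or 3, when 6 to 8 members still had an unadjusted p under 0.05 in limma.

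Abca1, which loads cholesterol onto apolipoprotein A-I and is a target of LXR, had 13.17, 12.88, 13.01 and 13.37 in phenformin livers of day 3, against 13.28, 13.02, 13.05 and 13.43 in controls. Abca1 at day 14 had 12.74, 12.46, 12.66 and 12.76 in phenformin livers, against 13.00, 12.81, 12.61 and 13.05 in controls. Phenformin livers of day 14 all lay below those of day 3 (-0.46 ± 0.13, adjusted p = 0.402), and controls of day 14 were at -0.33 ± 0.13 relative to controls of day 3 (adjusted p = 0.566). The changes with phenformin were -0.08 ± 0.13 at day 3 and -0.21 ± 0.13 at day 14. Nr1h3, which encodes LXR alpha, was at 0.04 ± 0.13 and 0.03 ± 0.13.

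Abcg5 and Abcg8 encode the partners that form the transporter that secretes cholesterol and plant sterols into bile. Abcg5 had 6.56, 7.61, 8.85 and 9.74 in phenformin livers of day 3, against 7.52, 5.76, 8.20 and 6.68 in controls. At day 14 it had 7.50, 7.80, 7.65 and 8.72 in phenformin livers, against 8.39, 6.02, 8.74 and 5.83 in controls. Livers within a group differed by more than the group means did. The changes were 1.15 ± 0.75 (95% interval -0.46 to 2.76) at day 3 and 0.67 ± 0.75 (-0.93 to 2.28) at day 14, with adjusted p of 0.672 and 0.829. Abcg8 was at 1.08 ± 0.70 and 0.22 ± 0.70. The within-group SD of Abcg5 was 1.20 and that of Abcg8 1.11, larger than those of 99.9% and 99.8% of genes.

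Both genes varied together over the 16 livers. Deviations from the group means correlated at r = 0.98 over the 16 livers (Spearman's rho 0.95), and at 0.97 without the 2 livers farthest from the median of Abcg5. Abcg8 had 6.29, 7.30, 8.59 and 9.24 in phenformin livers of day 3, against 6.95, 5.88, 7.95 and 6.33 in controls. Abcg8 at day 14 had 7.23, 7.08, 6.55 and 7.96 in phenformin livers, against 8.23, 5.66, 8.21 and 5.84 in controls. The genes lie head to head, with 205 bases between their start sites at chr6:15717731-15717935 of GRCr8, where Abcg8 runs on the minus and Abcg5 on the plus strand. The stretch is given because it precedes both genes. It comes from RefSeq, on the plus strand from the Abcg8 to the Abcg5 start, with capitals for its match to CCAAT, read on the minus strand.
Abcg8 to Abcg5: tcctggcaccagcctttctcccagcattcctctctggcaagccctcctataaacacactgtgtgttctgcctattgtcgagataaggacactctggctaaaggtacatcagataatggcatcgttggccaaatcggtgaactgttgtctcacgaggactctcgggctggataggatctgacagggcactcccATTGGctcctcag

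Synthesis enzymes also varied together within groups. Over the 171 pairs of the 19 enzymes, the median r of the deviations from group means was 0.24, and 41 pairs (24.0%) had an r over 0.5. Of the 419748 pairs of an enzyme with every other gene, 4.30% had an r over 0.5, with a median of -0.00. These other genes were not matched to the enzymes in level or in spread within groups, so the 2 shares are not like for like. Between enzymes the highest values were 0.89 for Idi1 with Cyp51, 0.88 for Idi1 with Msmo1, and 0.86 for Sqle with Idi1 and with Msmo1. Without the 2 livers farthest from the median of the first gene of each pair, Idi1 with Cyp51 gave 0.83, Idi1 with Msmo1 0.72, Idi1 with Sqle 0.79 and Sqle with Msmo1 0.80. Points of such a pair share the liver, the RNA and the array, so r also holds what these have in common.

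Phenformin replicate 2 of day 3 was lowest of the 16 livers for Idi1 (10.23), Sqle (9.91) and Msmo1 (12.39), and 14 of the 19 enzymes were below their group mean in it. Without it, an alternative chosen after its values were seen, 34 of the 171 pairs (19.9%) had an r over 0.5, where the share of enzymes with every other gene was 5.73%. Control replicate 1 of day 3 was the other extreme, with 0 of 19 enzymes below the group mean. Its mean over the 19 enzymes was 11.38, where the 16 livers ran from 10.54 to 11.38. Mvk, Pmvk, Ggps1, Lbr, Sc5d and Dhcr7 each had an r over 0.5 with 0 of the 18 other enzymes, whereas Mvd had it with 10 and Sqle and Cyp51 with 9 each. The median within-group SD of the 32 members was 0.253, against 0.176 over all genes.

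**Figure D4:**
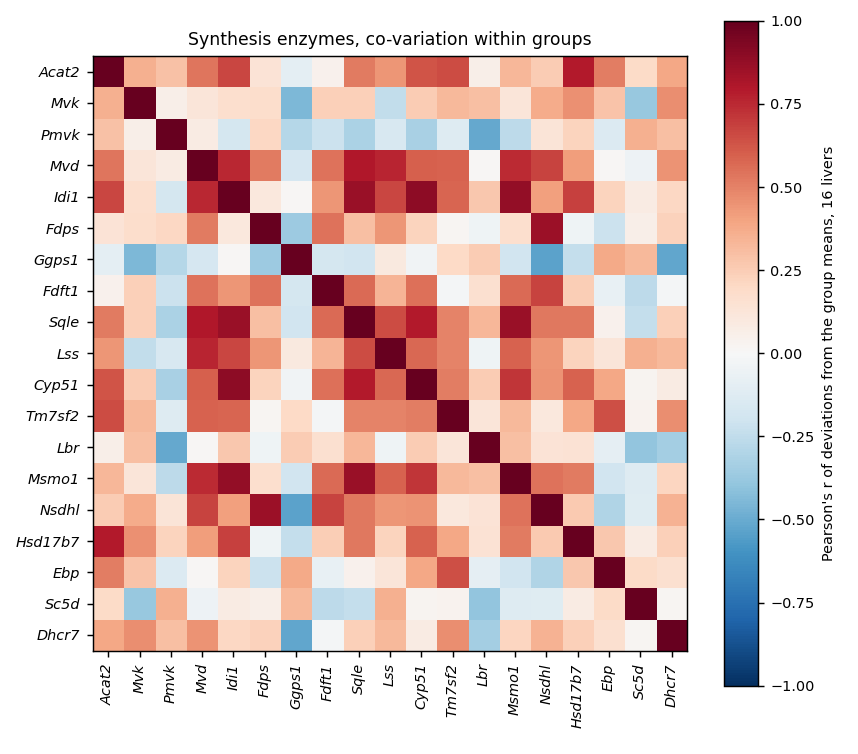
Colour gives Pearson's r of the deviations from the group means over 16 livers for each pair of the 19 synthesis enzymes. Mvd, Idi1, Sqle, Lss, Cyp51 and Msmo1 form a block of high values, with r = 0.89 for Idi1 with Cyp51.

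**Figure D5:**
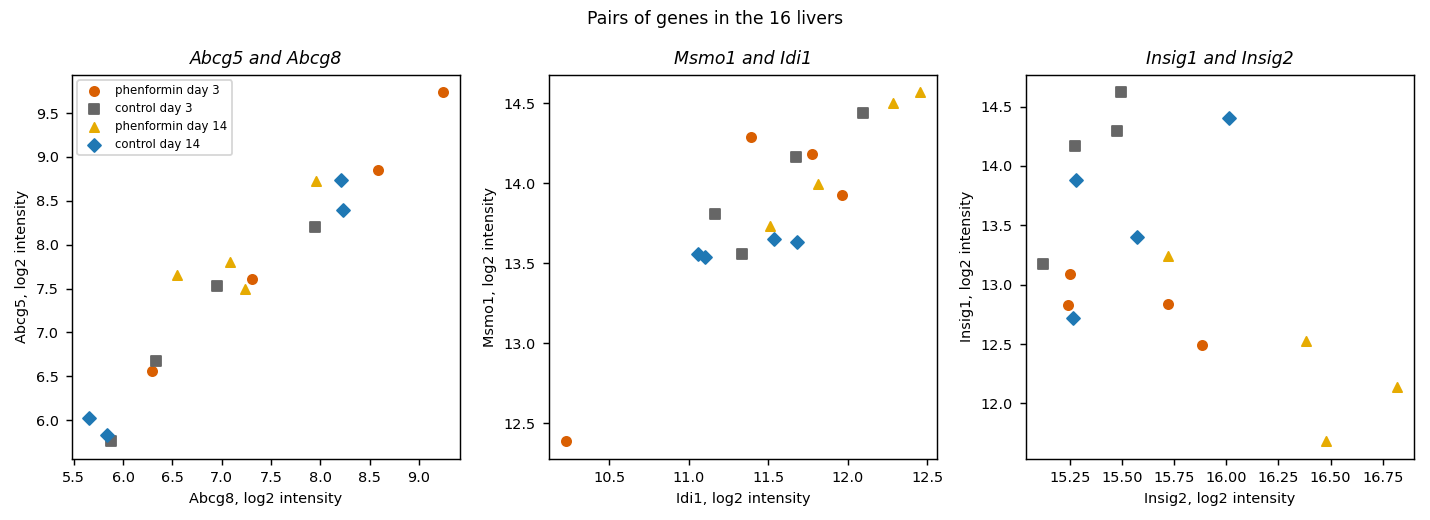
Each point is 1 liver, with the log2 intensity of 1 gene on each axis and the 4 groups by colour and shape. Abcg5 and Abcg8 correlate over the 16 livers, although replicates 1 to 3 of phenformin day 14 differ in order between the genes, Msmo1 follows Idi1 with phenformin replicate 2 of day 3 far below the rest (12.39 and 10.23), and 3 of 4 phenformin livers of day 14 lie at the highest Insig2 values with Insig1 at 12.52 or below, the other at 15.72 and 13.24.

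Promoters from RefSeq (GRCr8), the 250 bases before each start, were found for 27 of the 33 listed genes; Pmvk, Fdft1, Sqle, Stard4, Scarb1 and Soat2 were not among them. Known elements of sterol-regulated promoters were searched on both strands as CCAAT, the NF-Y box, GGGCGG, the Sp1 box, and TCACNCCAC, an SRE-like motif. CCAAT was found in 21 of 27 promoters (77.8%), against 34.0% of all 33469 promoters of the same length. GGGCGG was found in 19 (70.4%), against 30.5% of all. Both counts include Hmgcs1, which was not analysed on the arrays. The promoters counted as all were neither limited to genes measured here nor matched to the members, so the shares are not like for like. The windows of Abcg5 and Abcg8 overlap, and the same 1 CCAAT match counts for both genes. No CCAAT match overlapped a GGGCGG match in the members. TCACNCCAC was found in 0 of the 27 and in 0.974% of all promoters, which says only that these letters are not in these windows. The members' share is a description of the list, and matches were not set against the values.

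Among the enzymes, the highest correlation between livers was that of Idi1 with Cyp51 (r = 0.89), and the window of Cyp51 had 0 CCAAT matches. Whether CCAAT matches go with such correlations was not tested. The windows of Idi1 and Msmo1, the pair with the next highest correlation (r = 0.88), are printed. That of Idi1 is chr17:66547525-66547774 on the minus strand with 2 CCAAT matches, at 66 and 35 bases before the start, and that of Msmo1 is chr16:29746863-29747112 on the plus strand with 3 such matches, at 173, 109 and 68 bases. Both are given 5′ to 3′ in the direction of the gene with capitals for CCAAT or its reverse complement.
Idi1: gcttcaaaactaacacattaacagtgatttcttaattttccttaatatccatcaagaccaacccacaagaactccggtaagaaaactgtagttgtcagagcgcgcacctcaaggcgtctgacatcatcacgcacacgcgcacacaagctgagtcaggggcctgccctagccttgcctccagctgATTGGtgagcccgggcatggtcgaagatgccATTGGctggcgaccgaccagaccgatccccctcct
Msmo1: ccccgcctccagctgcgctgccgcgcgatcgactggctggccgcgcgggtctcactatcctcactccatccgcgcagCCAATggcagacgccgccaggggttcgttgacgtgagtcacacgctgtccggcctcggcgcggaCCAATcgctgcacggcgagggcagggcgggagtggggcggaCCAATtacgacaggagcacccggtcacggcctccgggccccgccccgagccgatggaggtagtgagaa

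Other genes of sterol handling that are not on the list had 25 of 27 measured, and 0 were called at day 3, at day 14 or between the control days in limma. The smallest p at day 3 belonged to Erlin2 (0.58 ± 0.19, adjusted p = 0.237), which helps break down sterol-regulated membrane proteins. The smallest at day 14 belonged to Nceh1, a cholesteryl ester hydrolase (0.87 ± 0.21, adjusted p = 0.0998), and then to Ufd1, a cofactor of protein extraction from the endoplasmic reticulum (0.34 ± 0.09, adjusted p = 0.112). Genes of fatty acid synthesis, driven by the related factor SREBP1, had 2 of 12 called lower and 0 higher at day 3. The share of all genes called at that day was 1.15%. Pnpla3, a lipid droplet protein, fell by 3.87 ± 0.73 and Elovl5, a fatty acid elongase, by 0.63 ± 0.14 (adjusted p = 0.0181 and 0.0345). At day 14, 0 of the 12 passed in limma, where 0.321% of all genes did, with a median of -0.94 for the 12. Between the control days 1 of the 12 was called, where 0.403% of all genes were. It was Me1, the malic enzyme gene, which fell by 2.14 ± 0.43 in controls of day 14 relative to controls of day 3 (adjusted p = 0.0476). The median of the 12 between the control days was -0.88. Srebf1 was at -0.93 ± 0.70 at day 3 and -1.30 ± 0.70 at day 14 (adjusted p = 0.734 and 0.536). The mean of the 12 genes was 13.86 ± 0.58 in phenformin and 15.10 ± 0.50 in control livers of day 3, and 12.85 ± 0.22 in phenformin and 13.78 ± 0.50 in control livers of day 14 (SD, n = 4 each).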

How the data were processed

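Total RNA of 16 livers was labelled with biotin and hybridised to 1-colour arrays, per the labels' protocols. For every probe set the deposited table gives 1 intensity in each array, made by the authors with RMA, per the submitters' processing notes. RMA gives log2 values, while the deposited intensity values are linear, so log2 was taken with no pseudocount. The sources used here give no program, version or genome build. Detection calls were not used. Array medians lay between 30.89 and 34.46, and the number of arrays limits the precision.

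Of 68842 probe sets, 23446 had 1 gene symbol in the platform annotation, 505 several and 44891 none. The probe set with the highest mean stood for each of 22093 genes. Group means of the 16 arrays were fitted with limma 3.58.1 in R 4.3.3 (lmFit and eBayes, 12 residual degrees of freedom), checked first on simulated data, and Benjamini-Hochberg adjustment ran over all genes, with 0.05 as the threshold. Arrays of a group count as 1 animal each, as the titles say. Any 2 arrays shared at most 6 equal values.

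The members, their 6 roles and the other lists were chosen with earlier results of these data known. Values of every liver are given for members called in any contrast and, in each role, for the member with the largest change at day 3, at day 14 and between control days; Insig2 and Abcg8 were added beside their partners after their values were seen. Genes of other lists are named where called with phenformin, or up to 3 by smallest p; Srebf1 and Me1 were added after their values were seen. Alternatives were the prior, a filter on low genes, quantile normalization, centring, array weights, the mean of probe sets, a pseudocount of 16, only the compared arrays, a replicate block and leaving out each array. Deviations of same-numbered livers of different groups correlated over genes at -0.11 to 0.18, over 0.1 in 7 of 24 pairs. Livers of different numbers were not compared in this way, so these values cannot tell whether same-numbered livers belong together. The replicate numbers were not taken as pairs because the labels give them no shared origin.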

Additional observations from a re-analysis of the deposited data

Results flagged for a closer look

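In each of the 4 groups, the highest or lowest liver was looked at for a gap to its neighbour that is large for the range of 4 values (Dixon's test at the 95% level). Over 32 genes and 4 groups, 2 of 128 groups had such a liver, and chance gives about 1 in 20. Sqle stood at 10.25 in control replicate 4 of day 14, below 10.46 in the next liver. Srebf2 stood at 9.48 in control replicate 3 of day 14, below 9.83 in the next liver. No explanation was tested for either.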

How the results depend on the processing

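None of the 22 log2 changes of single members recomputed under the alternatives reversed its sign. These were picked as called or as the largest of their role, so a reversal was unlikely from the start. Changes near 0, such as that of Tm7sf2 at day 3, were not among them. Summaries near 0 moved: the median over members for phenformin livers of day 14 against day 3 was 0.03, and -0.03 without phenformin replicate 2 of day 3, -0.02 without phenformin replicate 3 of day 14 and -0.00 without replicate 1 of day 14. Members below 0 at day 14 numbered 13, and 11 to 15 under the alternatives. At day 3, 2 members were called in the analysis reported, 0 to 2 when 1 array was left out, 3 with array weights (Pmvk, Sc5d, Soat2), 1 in a fit of only the compared arrays (Pmvk) and 1 with the replicate block (Insig1, adjusted p = 0.0405; Pmvk 0.0692 and Soat2 0.0581). Day 14, the difference of effects and the phenformin livers over time kept 0 called members under every alternative run, leaving out each array included. Between the control days, 0 members were called in the analysis reported, 1 with array weights (Pmvk) and 0 to 1 when 1 array was left out. Controls of day 3 against the other groups had 2 called members in the analysis reported and 1 to 4 when 1 array was left out, 1 without control replicate 1 or 3 of day 3 and 4 without control replicate 2 of day 3 or phenformin replicate 2 of day 14. They had 5 without the genes of lowest mean, 4 with quantile normalization, 6 with array weights and 4 with the replicate block (Pmvk, Dhcr7, Insig1, Abca1). The cause of these shifts was not tested. The labels give no shared origin for livers of the same replicate number, so the block is given here only. Depth in the sense of counts does not apply; genes near the median level of 5.86 may lie close to background.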
